A study of Drosophila melanogaster with 12 samples.

Results

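The dosage compensation genes of Drosophila melanogaster are described here in S2 cells, a male cell line of embryonic origin. The 7 members were the protein genes msl-1, msl-2, msl-3, mof and mle and the RNA genes lncRNA:roX1 and lncRNA:roX2, found by symbol in the reference annotation and through it by gene identifier in the deposited tables. All 7 were among the 12986 genes of the RNA-seq table, and 5 of them (all but roX1 and roX2) were among the 13924 genes of the ChIP-seq table. The study asked which genes of S2 cells depend on Brahma (BRM), the ATPase of the SWI/SNF chromatin remodeler, and which of them depend on its ATPase activity. RNA was sequenced from 4 groups of 2 biological replicates. In recBRM-V5 cells, a stably transfected line, a V5-tagged wild-type BRM was driven by the metallothionein promoter. In recBRM-K804R-V5 cells, a second stable line, the same promoter drove a tagged BRM without ATPase activity. BRM-depleted and control cells carried no BRM gene on a plasmid, and their labels name an empty plasmid. Double-stranded RNA (dsRNA) against BRM was given to all groups except the controls, which received dsRNA against GFP, at 30 µg per well for 48 h in every group. Expression from the promoter was switched on with copper sulfate over the final 24 h, and whether the cells without a BRM plasmid also received it is not given in the sources used here. Whether either stable line is a single clone is not given either. For ChIP-seq, endogenous BRM was precipitated from S2 chromatin in 2 replicates, each with its Input (chromatin before precipitation).

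Male flies have a single X chromosome, and the MSL complex raises the transcription of its genes to balance the X with the autosomes. MSL-1 is the scaffold of the complex, MSL-2 is its male-limited RING finger subunit, MSL-3 reads methylated histones through a chromodomain, MOF acetylates histone H4, and MLE is an RNA helicase that remodels the roX RNAs. The roX RNAs are long non-coding RNAs that are built into the complex and largely stand in for each other. In females the RNA-binding protein Sex-lethal (SXL) blocks the splicing and the translation of msl-2 RNA, so that no complex forms.

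The sequences that carry these functions were read from the reference genome of BDGP6 (RefSeq assembly), with positions counted from 1 at the 5′ end of the gene. The roX box, searched as GTTNTACG on the RNA strand, is a short element of both roX RNAs that MLE and the complex use. It occurred 3 times in roX1 (chromosome X, 3857230 to 3862697, minus strand, 5468 bases) and 2 times in roX2 (chromosome X, 11579065 to 11580432, plus strand, 1368 bases). At least 1 match was found in 15.9% of 4284 tiles of the X as long as roX1, and as many as 3 in 0.187% of them. For 17151 tiles as long as roX2, at least 1 match was found in 4.29% and 2 or more in 0.128%. The stretches are shown with the roX boxes in capitals, from chromosome X, 3858908 to 3859050 (minus strand), for roX1 and 11580069 to 11580159 (plus strand) for roX2.
roX1: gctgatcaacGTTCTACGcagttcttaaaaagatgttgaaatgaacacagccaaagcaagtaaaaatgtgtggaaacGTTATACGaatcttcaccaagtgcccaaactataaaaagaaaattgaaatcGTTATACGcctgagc
roX2: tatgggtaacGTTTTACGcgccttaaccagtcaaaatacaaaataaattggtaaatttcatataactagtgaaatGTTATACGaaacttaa

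GA repeats are the core of the sites from which the complex enters the X, and CLAMP is the zinc finger protein that binds them. The motif GAGAGAGA, searched on both strands, was found in roX2 at positions 1149 (minus strand) and 1203 (plus strand), just downstream of the roX boxes. In 9.7% of the X tiles of that length the motif was present, and in 5.32% it was present 2 or more times. No match was found in the span of roX1, where 31.1% of tiles of the same length held at least 1. Only exact matches were counted, so the search does not show that roX1 lacks an entry site with an inexact GA repeat. None of the 7 promoters, taken as 250 bases before to 50 bases after the start, held the motif, which is present in 2.81% of 17796 annotated promoters. The stretch from 11580204 to 11580284 of chromosome X (plus strand) is shown with both matches in capitals, the first as its complement on the printed strand.
roX2, GA repeats: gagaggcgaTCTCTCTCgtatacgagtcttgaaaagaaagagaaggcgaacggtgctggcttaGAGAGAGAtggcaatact

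SXL binds runs of T (U in the RNA) in msl-2 (chromosome 2L, 3462218 to 3466112, minus strand). Of 4 runs of at least 8 T in the gene, those of 11 and 16 bases stood at positions 66 and 164, at the ends of the small intron of the 5′ leader, and both 9-base runs stood at 3525 and 3712, near the 3′ end. The runs of the intron are shown in capitals, with 30 bases each (chromosome 2L, 3466022 to 3466051 and 3465926 to 3465955, minus strand), because they are among the sites that females use to keep msl-2 off.
msl-2, start of the intron: gtaaTTTTTTTTTTTagttgctaatttatt
msl-2, end of the intron: aaccaaTTTTTTTTTTTTTTTTgcacgtga

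The other members lie on chromosome 2L (msl-1, 18683720 to 18688800), chromosome 3L (msl-3, 7123213 to 7125533), chromosome X (mof, 5873840 to 5876853) and chromosome 2R (mle, 5974857 to 5980778). The exons of roX1 overlap those of ec on the opposite strand over 392 bases, and the exons of msl-3 overlap form3 on the opposite strand over 85 bases. The RNA-seq kit marks strand, and whether the counting used it is not given in the sources used here. Reads of these stretches can therefore not be assigned with certainty.

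The 8 RNA-seq libraries held 6600562 to 10287294 counts, and 8165 genes, all 7 members included, passed the filter on low counts. brm RNA had 16634 and 24893 CPM (counts per 1e6 counts of the library, scaled by TMM) in recBRM-V5 cells and 2118 and 2005 CPM in recBRM-K804R-V5 cells, against 177 and 175 CPM in BRM-depleted cells and 433 and 446 CPM in control cells. MtnA, a metallothionein that copper induces, had 5238 to 10171 CPM in the 4 libraries of the recombinant lines, against 188 to 224 CPM in the 4 others. Copper, line and recombinant protein cannot be told apart in any comparison of these lines with the other groups. All 7 hemocyte markers were detected in every group, with NimC1 (a phagocytosis receptor) at 376 and 204.5 CPM in recBRM-V5 cells, against 1.18 to 6.99 CPM in the 6 other libraries. Hml, which encodes hemolectin, had 254 and 223 CPM in recBRM-V5 cells and 97.7 and 29.7 CPM in recBRM-K804R-V5 cells, against 737 and 993 CPM in BRM-depleted cells and 828 and 810.3 CPM in control cells. In both lines against both other groups, NimC1 was called higher (log2 fold change 4.42), Hml (-2.77) and srp (-0.48), a GATA factor of blood cells, were called lower, and the 4 other markers were not called. Among these 4, Pxn was called in opposite directions in the lines. Against control cells it was higher in recBRM-V5 cells (1.47, adjusted p = 0.00245, edgeR) and lower in recBRM-K804R-V5 cells (-0.74, adjusted p = 0.048, edgeR). Markers of other cell types (6 in the table) summed to 48.8 to 51.7 CPM in recBRM-V5 cells and 29.4 to 44.4 CPM in recBRM-K804R-V5 cells, against 101 to 103 CPM in BRM-depleted cells and 74.2 to 85.1 CPM in control cells. Nearly all of that sum was elav, and 1 or 2 of the 6 markers were at 0 in each group. The exons of elav overlap those of arg and lncRNA:enrr, over 3667 bases in total.

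In the levels of the 7 genes, roX2 led and roX1 was almost silent. Per kilobase of exon, roX2 averaged 47.5 CPM over the 8 libraries (31.8 to 56.7), above 78.9% of the 7782 tested genes with an annotated length, whose median was 18.3 CPM per kb. msl-2 followed with 29.4 CPM per kb (27.1 to 31.9), msl-1 with 26.1 (18.8 to 33.8) and mle with 24.2 (22.1 to 28.7). These 3 had overlapping ranges, and so did roX2 with msl-2 and msl-1 at its lowest library. msl-3 averaged 15.3 CPM per kb (10.5 to 18.6) and mof 12.3 (9.19 to 15.1), again with overlapping ranges. roX1 averaged 0.351 CPM per kb (0.138 to 0.538), below every other member in every library and above only 1.94% of the tested genes. The roX2 to roX1 ratio of CPM was 18.0 to 102 over the 8 libraries. msl-2 varied least, with a highest library 1.18 times the lowest, and mle varied 1.3 times, against 1.64 to 1.80 times for mof, msl-3, roX2 and msl-1 and 3.89 times for roX1.

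msl-2 and roX2 RNA were thus present in all 8 libraries. Sxl RNA was also present, at 138 to 291 CPM, and gene counts do not separate the female splice form from the male form, which carries an early stop.

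**Figure D1:**
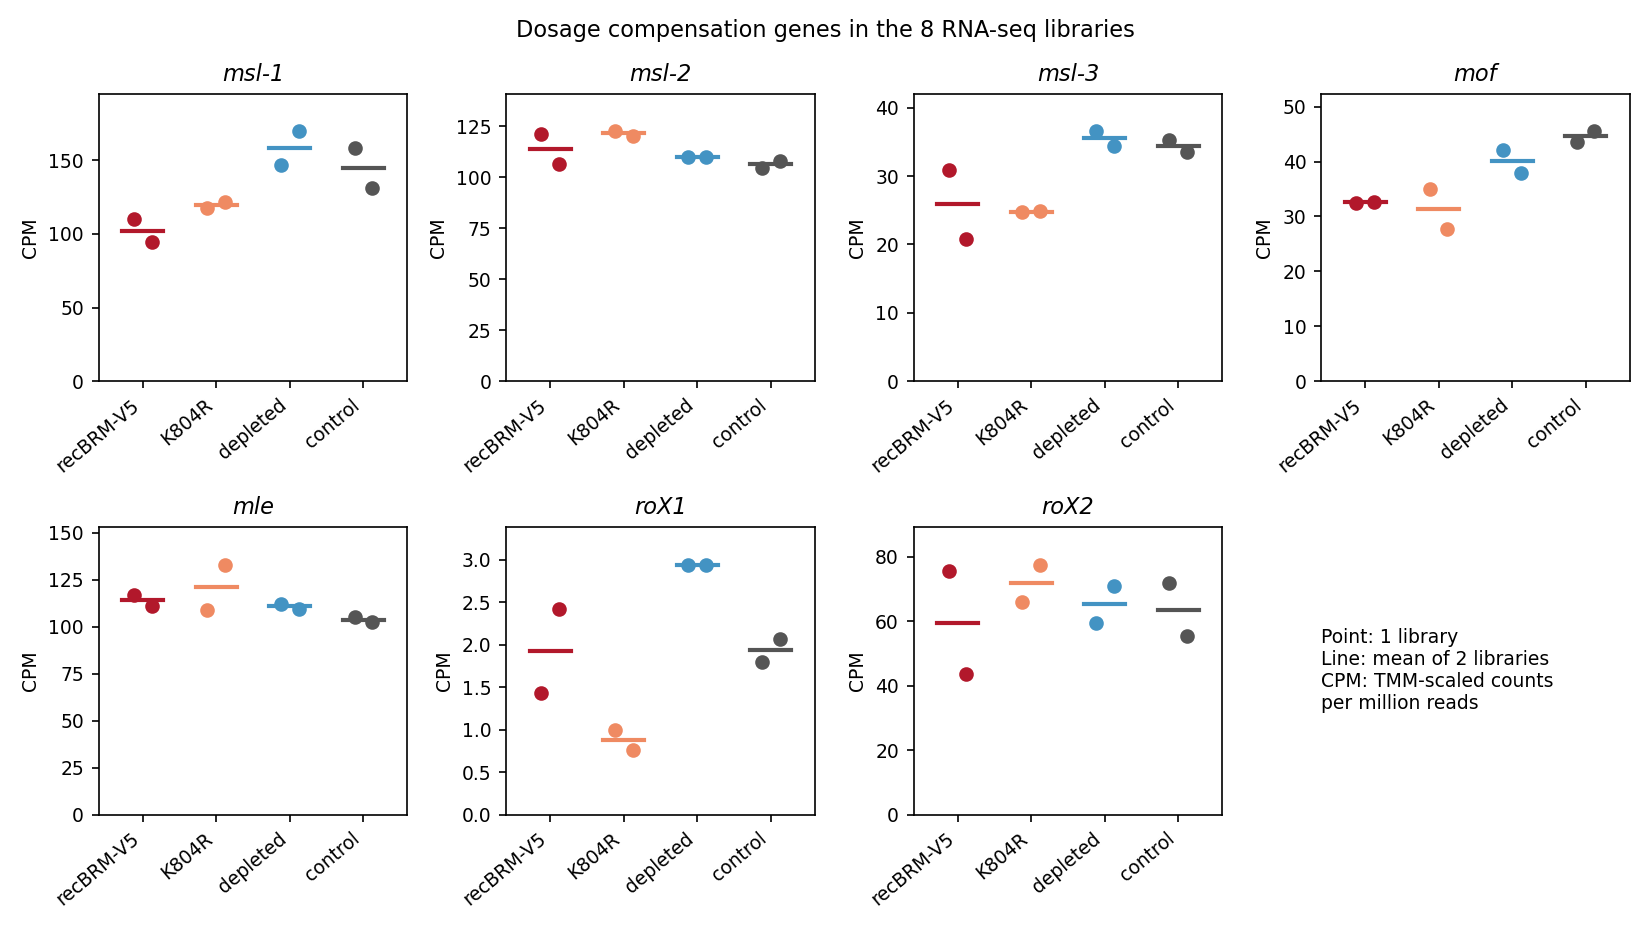
CPM (scaled by TMM) of the 7 genes in each RNA-seq library, as points, with the mean of both replicates as a line, for recBRM-V5, recBRM-K804R-V5, BRM-depleted and control cells. The 4 libraries of the recombinant lines lie below the 4 others for msl-1, msl-3 and mof, whereas those of msl-2, mle, roX1 and roX2 overlap.

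The scaffold gene msl-1 was lower in the recombinant lines than in cells without a BRM plasmid. It had 109.8 and 94.6 CPM in recBRM-V5 cells and 117 and 121 CPM in recBRM-K804R-V5 cells, against 147 and 169.8 CPM in BRM-depleted cells and 158 and 131 CPM in control cells. All 4 libraries of the recombinant lines were below all 4 others. In the comparison of both lines with both other groups, the log2 fold change was -0.45 (SE 0.11, 95% interval -0.71 to -0.20), with an adjusted p of 0.0187 in edgeR's quasi-likelihood test over all 8165 genes. Of the 7 members, 2 were called in this comparison, both lower, where 27.6% of all tested genes were called and 12.2% were called lower. This is close to the share of all tested genes called in either direction and above the share called lower. With only 7 members that difference was not tested. Fewer cells of a type and less RNA per cell cannot be told apart in such bulk samples. The call of msl-1 was lost without BRM-depleted replicate 2 (adjusted p = 0.0899), without control replicate 1 (0.0798) and without recBRM-K804R-V5 replicate 1 (0.0559).

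Against BRM-depleted cells alone, which received the same dsRNA, msl-1 was lower in recBRM-V5 cells by 0.63 on the log2 scale (-0.63, SE 0.16, adjusted p = 0.0273, edgeR). It was the 1 member called of 7 in that comparison, with 19.5% of all tested genes called. The call was lost without BRM-depleted replicate 1 (adjusted p = 0.0883), without BRM-depleted replicate 2 (0.198) and without recBRM-V5 replicate 2 (0.0899), with log2 fold changes between -0.74 and -0.53. In recBRM-K804R-V5 cells the value against BRM-depleted cells was -0.41 (SE 0.16, adjusted p = 0.133, edgeR). Against control cells, no member was called in either line, with 18.2% of all tested genes called for recBRM-V5 and 10.5% for recBRM-K804R-V5. msl-1 had log2 fold changes of -0.50 (SE 0.16, adjusted p = 0.0628) in recBRM-V5 cells and -0.28 (SE 0.16, adjusted p = 0.333) in recBRM-K804R-V5 cells against the controls.

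mof, the acetyltransferase gene, was less abundant than msl-1 and was also lower in the recombinant lines than in cells without a BRM plasmid. It had 32.5 and 32.7 CPM in recBRM-V5 cells and 35.1 and 27.7 CPM in recBRM-K804R-V5 cells, against 42.2 and 38.0 CPM in BRM-depleted cells and 43.6 and 45.6 CPM in control cells. The groups did not overlap, with the 4 libraries of the recombinant lines below the 4 others. The log2 fold change of both lines against both other groups was -0.40 (SE 0.12, 95% interval -0.68 to -0.12, adjusted p = 0.0443, edgeR). This was the second of both calls among the members, and the weaker: only without recBRM-K804R-V5 replicate 1 was it kept when a library was left out (adjusted p = 0.0373). Without each of the 7 other libraries in turn, the adjusted p was between 0.0507 and 0.152. In comparisons of 2 groups the largest differences of mof were against control cells, with -0.45 (SE 0.17, adjusted p = 0.117) in recBRM-V5 cells and -0.50 (SE 0.17, adjusted p = 0.112) in recBRM-K804R-V5 cells.

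msl-3, the chromodomain gene, was near the threshold, and its call depended on the processing. It had 31.0 and 20.8 CPM in recBRM-V5 cells and 24.7 and 24.8 CPM in recBRM-K804R-V5 cells, against 36.6 and 34.5 CPM in BRM-depleted cells and 35.3 and 33.5 CPM in control cells. Here too the 4 libraries of the recombinant lines were below the 4 others, with recBRM-V5 replicate 1 nearest to them. The log2 fold change of both lines against both other groups was -0.46 (SE 0.15, 95% interval -0.81 to -0.12, adjusted p = 0.0524, edgeR), and without recBRM-V5 replicate 1 it was -0.63 with an adjusted p of 0.00677. It was called in 7 of 17 alternatives, among them DESeq2 (adjusted p = 0.035) and limma-voom (0.0453). So 3 of 7 members had groups that did not overlap, with the recombinant lines lower, as did 12.7% of all tested genes. The summed markers of other cell types, nearly all elav, and the hemocyte markers Hml and srp, given above, were also lower in these 4 libraries than in the 4 others. The hemocyte marker NimC1 went the other way and was called higher, and the 4 remaining hemocyte markers were not called in this comparison. Within the sum, nos was also lower in these 4 libraries, at 0.357 to 0.711 CPM, against 0.981 to 2.32 CPM in the 4 others. Mhc, a muscle marker, was instead higher in recBRM-V5 cells, at 1.91 and 4.27 CPM, against 0.422 to 1.22 CPM in BRM-depleted and control cells. In recBRM-K804R-V5 cells Mhc had 0.600 and 0.757 CPM. The part of these markers in the 3 differences was not tested.

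msl-2 and mle, the male-limited subunit and the helicase, did not pass the test in any of the 7 comparisons. msl-2 had 121 and 106 CPM in recBRM-V5 cells and 123 and 120.4 CPM in recBRM-K804R-V5 cells, against 109.9 and 110.0 CPM in BRM-depleted cells and 104 and 108 CPM in control cells. mle had 117 and 111 CPM in recBRM-V5 cells and 109 and 133 CPM in recBRM-K804R-V5 cells, against 112 and 109 CPM in BRM-depleted cells and 105 and 102 CPM in control cells. The libraries of the recombinant lines overlapped the others for both genes. Their log2 fold changes for both lines against both other groups were 0.12 (95% interval -0.09 to 0.33) for msl-2 and 0.13 (95% interval -0.10 to 0.36) for mle. Over the 6 comparisons of 2 groups, the values ran from -0.10 to 0.19 for msl-2 and from -0.08 to 0.22 for mle, and the widest 95% bounds were -0.39 and 0.49 for msl-2 and -0.41 and 0.54 for mle.

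**Figure D2:**
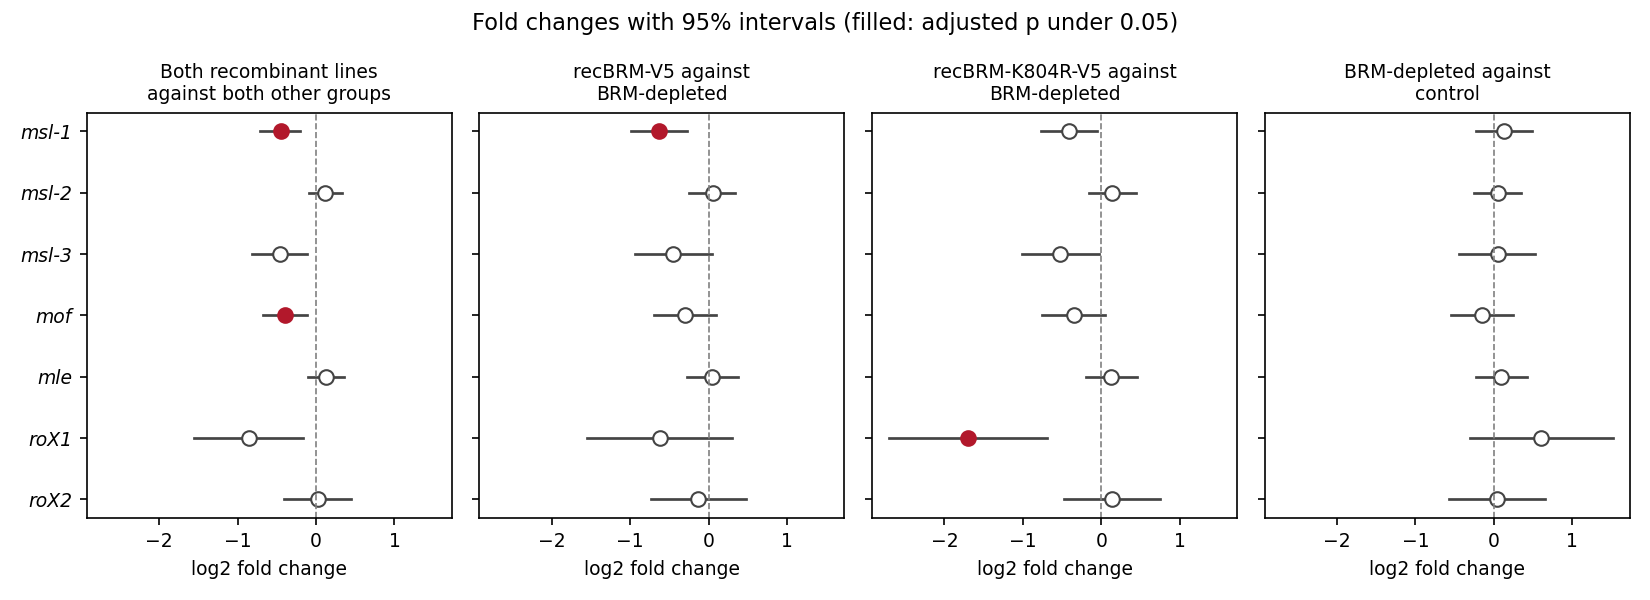
Log2 fold changes (points) with 95% intervals (lines) of the 7 genes in 4 of the 7 comparisons, filled where the adjusted p of edgeR was under 0.05. In the comparison of both recombinant lines, msl-1 (-0.45) and mof (-0.40) are filled, and msl-2 (0.12) and mle (0.13) lie on the other side of 0.

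roX1 was counted so rarely that its levels rest on a few reads. Its counts were 12 and 17 in recBRM-V5 cells and 10 and 5 in recBRM-K804R-V5 cells, against 20 and 21 in BRM-depleted cells and 17 and 17 in control cells. In CPM, these were 1.43 and 2.42 in recBRM-V5 cells and 0.999 and 0.757 in recBRM-K804R-V5 cells, against 2.94 and 2.94 in BRM-depleted cells and 1.79 and 2.07 in control cells. The recBRM-K804R-V5 libraries were thus below and the BRM-depleted libraries above all others, whereas recBRM-V5 libraries lay on both sides of the controls. In recBRM-K804R-V5 cells roX1 was lower than in BRM-depleted cells, with a log2 fold change of -1.70 (SE 0.44, 95% interval -2.71 to -0.69, adjusted p = 0.0438, edgeR). It was the 1 member called of 7 there, with 11.7% of all tested genes called.

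This call was lost in DESeq2 (adjusted p = 0.0623) and when a library of several groups was left out. Without BRM-depleted replicate 1 or 2 the adjusted p was 0.186 or 0.234, without recBRM-K804R-V5 replicate 1 or 2 it was 0.140 or 0.156, and without control replicate 1 or 2 it was 0.0831 or 0.0785. The log2 fold change stayed between -1.94 and -1.54 in these fits. Against control cells roX1 was at -1.10 (SE 0.45, adjusted p = 0.172) in recBRM-K804R-V5 cells and 0.60 (SE 0.40, adjusted p = 0.868) in BRM-depleted cells.

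roX2, the abundant roX RNA, was not called in any comparison. It had 75.4 and 43.5 CPM in recBRM-V5 cells and 66.0 and 77.5 CPM in recBRM-K804R-V5 cells, against 59.5 and 70.9 CPM in BRM-depleted cells and 71.7 and 55.3 CPM in control cells. Both replicates of recBRM-V5, the highest but 1 and the lowest of the 8 libraries, enclosed nearly all others, so that the spread within a group was as wide as that between groups. The log2 fold change of both lines against both other groups was 0.02 (95% interval -0.41 to 0.45), and over the 6 comparisons of 2 groups it ran from -0.27 to 0.17.

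Between the wild-type and the ATPase-dead protein, in recBRM-V5 against recBRM-K804R-V5 cells, no member of 7 was called in edgeR, with 4.74% of all tested genes called, and 1 member, roX1, had an unadjusted p under 0.05, as did 19.2% of all tested genes. roX1 had a log2 fold change of 1.08 (SE 0.45, adjusted p = 0.247) in recBRM-V5 over recBRM-K804R-V5 cells, and msl-1 had -0.22 (SE 0.16, 95% interval -0.59 to 0.14). The groups are separate stable lines, and brm RNA was higher in recBRM-V5 cells, with a log2 fold change of 3.33 (SE 0.28, adjusted p = 0.00126, edgeR). ATPase activity, amount of brm RNA and line cannot be told apart in this comparison. A p that misses the threshold does not show that both proteins act alike.

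After depletion of BRM without a recombinant protein, edgeR called 0% of the 8165 tested genes, while 378 genes (4.63%) and no member had an unadjusted p under 0.05. Even brm, the target of the dsRNA, was not called in this fit, with a log2 fold change of -1.32 (SE 0.26, adjusted p = 0.468, edgeR). The lack of calls thus does not show that the members or other genes were unchanged. DESeq2 called 20 genes, edgeR called 44 with only the libraries compared and 66 with no filter on low counts, and none of these was a member. The largest log2 fold changes of the members against control cells were 0.60 (SE 0.40) for roX1 and -0.15 (SE 0.17, 95% interval -0.55 to 0.24) for mof. msl-1 had 147 and 169.8 CPM in BRM-depleted cells, against 158 and 131 CPM in control cells, with overlapping ranges.

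Partners of the complex on chromatin were lower in the recombinant lines where they changed. Of 11 listed genes, 10 were tested, and 4 of them were called in the comparison of both lines with both other groups, all lower, where 27.6% of all tested genes were called and 12.2% were called lower. JIL-1, a histone H3 kinase enriched on the male X, had 104.7 and 90.5 CPM in recBRM-V5 cells and 94.4 and 114 CPM in recBRM-K804R-V5 cells, against 142 and 146 CPM in BRM-depleted cells and 148 and 136 CPM in control cells. Its groups did not overlap, and its log2 fold change was -0.51 (SE 0.11, adjusted p = 0.0102, edgeR). The others were Su(var)3-7, a heterochromatin protein (-0.34, SE 0.09), Iswi, the ATPase of the NURF remodeler (-0.44, SE 0.11), and E(bx), the large subunit of NURF (-0.64, SE 0.16). When a library was left out, the call of Su(var)3-7 was lost in most fits and those of Iswi and E(bx) in some, while that of JIL-1 was kept in nearly all. The median of the 10 genes was -0.30, against 0.04 over all tested genes. Clamp, the GA-binding factor, had 207.5 and 168 CPM in recBRM-V5 cells and 202 and 233 CPM in recBRM-K804R-V5 cells, against 211 and 223 CPM in BRM-depleted cells and 200.2 and 191 CPM in control cells. Its groups overlapped, with a log2 fold change of -0.03 (95% interval -0.28 to 0.22).

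JIL-1 and Su(var)3-7 were also called lower in recBRM-V5 cells, both against BRM-depleted cells (-0.56 and -0.54) and against control cells (-0.54 and -0.50), and E(bx) was called there against BRM-depleted cells (-0.81). The shares of all tested genes called in recBRM-V5 cells were 19.5% against BRM-depleted cells and 18.2% against control cells. In recBRM-K804R-V5 cells none of the 10 partners was called against either group, where 11.7% of all tested genes were called against BRM-depleted cells and 10.5% against control cells. For Su(var)3-7 the value of recBRM-V5 against recBRM-K804R-V5 was -0.35 (SE 0.13, adjusted p = 0.193, edgeR), so a difference between the lines was not shown. When a library was left out, the highest adjusted p in recBRM-V5 cells was 0.185 (against BRM-depleted) and 0.199 (against control) for JIL-1, 0.148 and 0.182 for Su(var)3-7, and 0.224 (against BRM-depleted) for E(bx).

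The NSL complex shares MOF with the MSL complex and serves housekeeping genes in both sexes. Of its 6 listed genes, all tested, none was called in the comparison of both lines, where 27.6% of all tested genes were called, with a median of -0.02 against 0.04 over all tested genes. Rcd1 was the 1 gene called in any comparison, in recBRM-V5 against BRM-depleted cells, where 19.5% of all tested genes were called. It had 132 and 108 CPM in recBRM-V5 cells, against 173 and 191 CPM in BRM-depleted cells (log2 fold change -0.60, SE 0.16, adjusted p = 0.0361, edgeR), and it was called in 3 of 8 fits that left out a library.

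Of 11 listed genes that regulate msl-2 or act in the sex determination pathway, 10 were tested and dsx was too low to be tested, with 1 to 5 counts in each library. In the comparison of both lines, 2 genes were called, both lower, where 27.6% of all tested genes were called and 12.2% were called lower. Unr, the RNA-binding partner of SXL in the repression of msl-2, had a log2 fold change of -0.41 (SE 0.12, adjusted p = 0.0424, edgeR). Its call was lost in most fits that left out a library. tra, a splicing regulator that SXL controls, had 10.1 and 10.8 CPM in recBRM-V5 cells and 12.7 and 12.4 CPM in recBRM-K804R-V5 cells, against 19.1 and 18.2 CPM in BRM-depleted cells and 21.3 and 18.2 CPM in control cells. The groups were far apart, and the log2 fold change of tra was -0.74 (SE 0.14, adjusted p = 0.00629), called in 8 of 8 fits that left out a library. fl(2)d, which acts with SXL in splicing, was called lower in recBRM-V5 against control cells (-0.61, SE 0.16, adjusted p = 0.0309, edgeR), also in 3 of 8 such fits. Sxl itself had a log2 fold change of 0.03 (95% interval -0.39 to 0.46) in the comparison of both lines. The median of the 10 genes was -0.14, against 0.04 over all tested genes.

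For the target of the complex, the X chromosome as a whole, the difference of the recombinant lines from the other groups was within the spread between libraries. Over 1325 tested X-linked genes and 6371 tested genes of the large autosome arms, the median log2 fold change of both lines against both other groups was 0.031 for the X and 0.043 for the autosomes, a difference of -0.012. In the comparisons of 2 groups the difference was -0.182 for recBRM-V5 against control, 0.035 for recBRM-K804R-V5 against control and -0.115 for BRM-depleted against control. It was -0.200 for recBRM-V5 against recBRM-K804R-V5, -0.075 for recBRM-V5 against BRM-depleted and 0.144 for recBRM-K804R-V5 against BRM-depleted. Genes are not replicates, so these medians carry no p.

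Per library, the median log2(CPM + 1) of X-linked genes minus that of autosomal genes was -0.531 and -0.302 in recBRM-V5 cells and -0.160 and -0.298 in recBRM-K804R-V5 cells, against -0.291 and -0.323 in BRM-depleted cells and -0.304 and -0.083 in control cells. The replicates of 1 group differed by up to as much as the groups did, with a pooled SD within groups of 0.123. The mean of the 4 libraries of the recombinant lines was lower than that of the 4 others by 0.073 (-0.073, exact permutation test, two-sided, p = 0.486, where the smallest p of 4 against 4 is 0.0286). Without recBRM-V5 replicate 1, the lowest library, the difference of recBRM-V5 against control was -0.057, and without recBRM-V5 replicate 2 it was -0.321. The X held 11.7% to 14.7% of the counts on the X and large autosome arms, and the same 2 libraries, recBRM-V5 replicate 1 and control replicate 2, were at the ends of both measures.

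**Figure D3:**
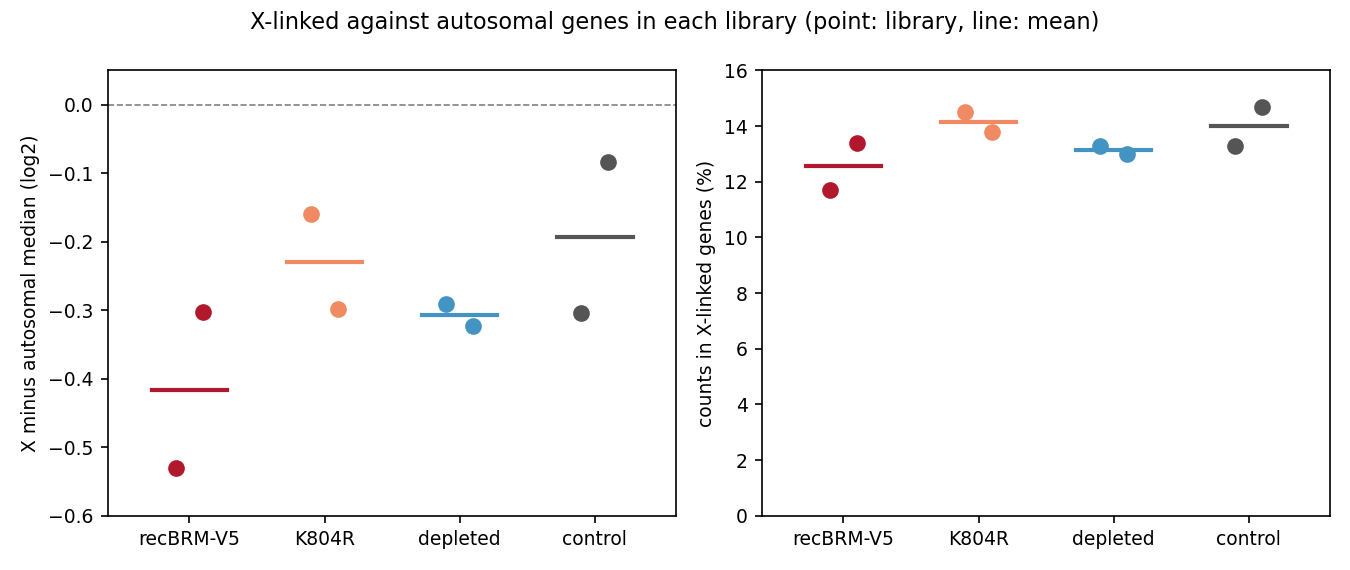
Left, median log2(CPM + 1) of tested X-linked genes minus that of tested autosomal genes, and right, the percent of counts in X-linked genes, for each RNA-seq library (points) with the mean of both replicates (lines). The 2 recBRM-V5 libraries (-0.531 and -0.302) and the 2 control libraries (-0.304 and -0.083) lie as far from each other as the groups do.

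In DNA, the X-linked genes had a lower signal than the autosomal genes. The median Input signal of the ChIP-seq table, mean coverage per gene, was 1.47 and 1.26 over 2094 X-linked genes, against 2.50 and 2.24 over 11190 genes of the large autosome arms, ratios of 0.588 and 0.564. In RNA per kilobase of exon, the median of tested X-linked genes was 10.7 to 14.7 CPM over the 8 libraries, against 18.3 to 19.3 CPM for tested autosomal genes, with ratios of 0.570 to 0.769. These sets differ in their genes and in the filter on low counts, so the RNA and DNA ratios are not to be divided by each other.

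mof stood out among X-linked genes in its Input signal. Its Input signal was 2.90 and 2.28, higher than 97.0% and 97.1% of X-linked genes and 1.16 and 1.02 times the autosomal median. Its neighbours shared this level: from CG15764 through GAA1, mof, Usp30, CG16721, Act5C, CG4020 and CG12236 to Shmt, the Input signal was 2.09 to 2.90 in replicate 1 and 1.90 to 2.28 in replicate 2. The listed genes next to this run had 1.39 (CG43137) and 1.45 (CG3726) in replicate 1 and 1.21 and 1.11 in replicate 2. The run was noticed after the values were seen, and its copy number was not tested.

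**Figure D4:**
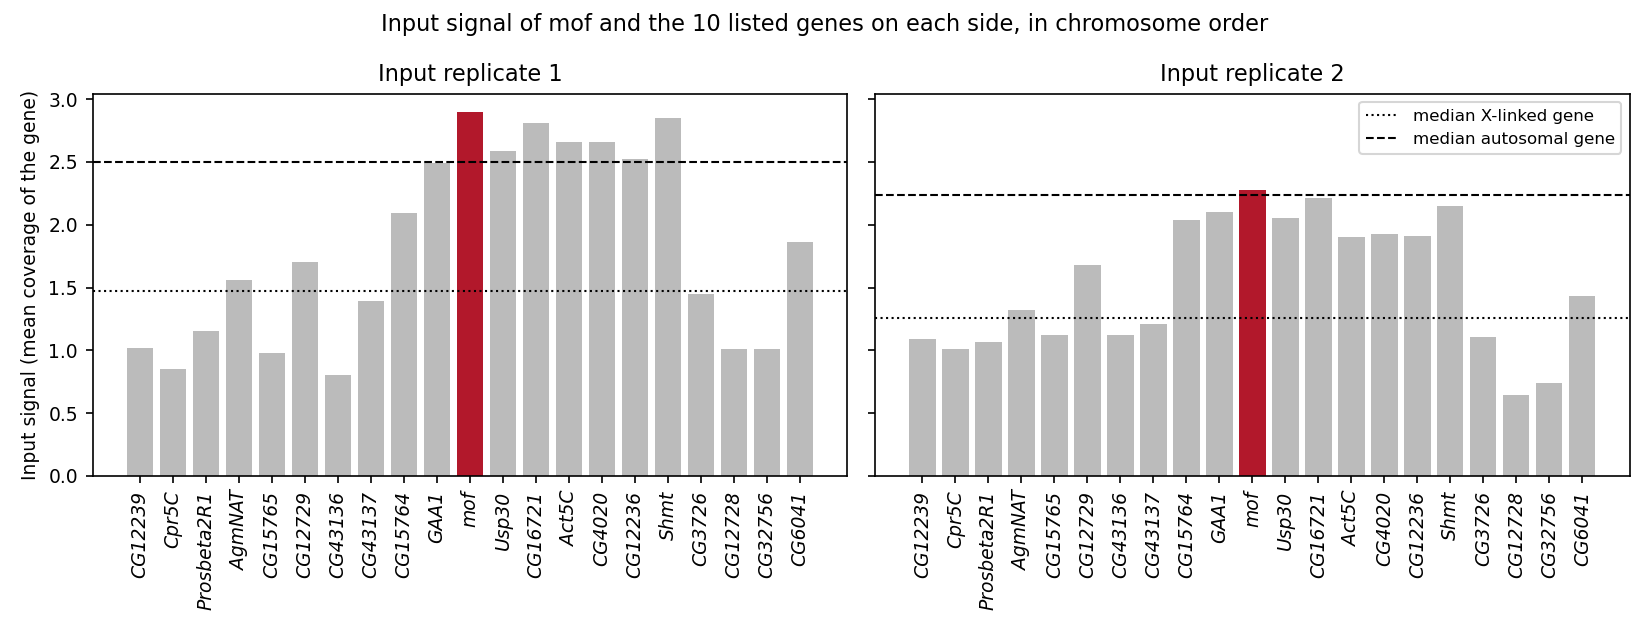
Input signal (mean coverage per gene, bars) of mof, in red, and of the 10 listed genes on each side in chromosome order, for both Input replicates, with the median of X-linked genes dotted and that of autosomal genes dashed. mof (2.90 and 2.28) and 8 neighbours stand near the autosomal medians of 2.50 and 2.24, and most of the other genes stand near or below the X-linked medians of 1.47 and 1.26.

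None of the 5 members in the ChIP-seq table met the criterion used here for binding by endogenous BRM, a mean IP/Input ratio over both replicates of at least 1.1, which 15.6% of the 13557 genes with sufficient Input signal met. That background depends on the processing, with 2117 genes for the mean ratio, 4045 after division of each replicate by its median and 3504 in replicate 2 alone, and no member met the criterion in any of these. The study applied the same cutoff of 1.1 to its own enrichment values, so its set of bound genes can differ from the set counted here. The ratios in replicates 1 and 2 were 0.888 and 0.712 for msl-1, 0.934 and 0.975 for msl-2, 0.910 and 1.06 for msl-3, 0.867 and 1.06 for mof, and 0.894 and 0.878 for mle. The median gene had 0.937 and 0.934. msl-1 had the lowest mean, 0.800 ± 0.124 (SD, n = 2), above 8.48% of genes. Its ratio in replicates 1 and 2 was above 29.4% and 14.8% of genes, and mof was lower than msl-1 in replicate 1. The highest mean was that of msl-3, with 0.984 ± 0.105 (SD, n = 2) and above 56.9% of genes. msl-2, msl-3, mof and mle were within the middle of the distribution, at percentiles between 26.3 and 56.9 of the mean ratio. By limma on log2(signal + 0.1), no member and no gene (0%) was called between IP and Input, and 6 genes (0.0443%) and no member had an unadjusted p under 0.05.

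Both replicates of the ChIP-seq did not rank genes alike, with a Pearson r of -0.282 between their log2 ratios across genes, which are not independent replicates. brm itself had a ratio of 3.49 in replicate 1 and 0.996 in replicate 2, so that replicate 1 stood apart there. MtnA had 1.55 and 0.507, above 99% and 2.3% of genes, so that both replicates were extreme there in opposite directions. The members' ratios of at most 1.06 hold in each replicate taken alone.

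**Figure D5:**
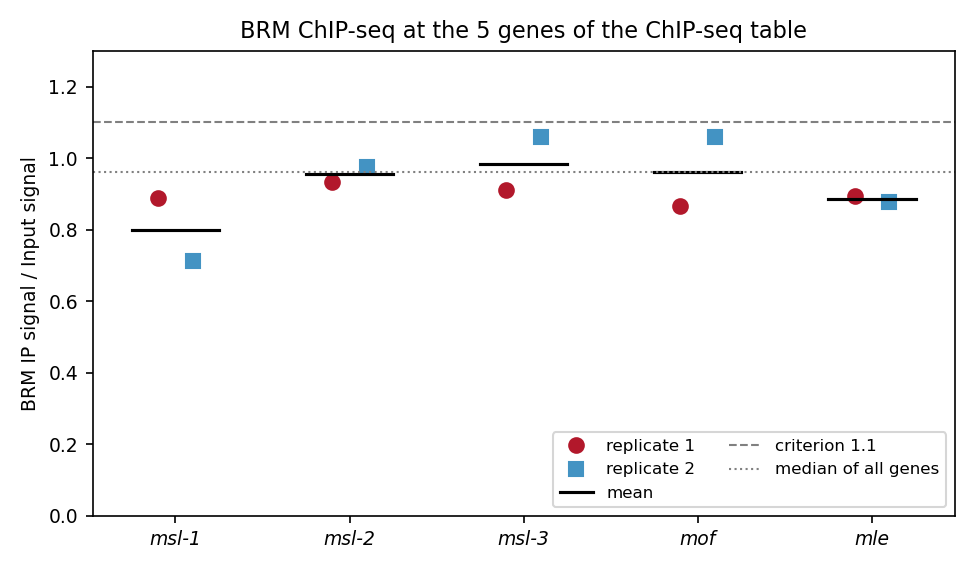
IP signal divided by Input signal (linear axis from 0) for the 5 members in the ChIP-seq table, in replicate 1 (circles) and replicate 2 (squares) with their mean (lines), the criterion of 1.1 (dashed) and the median of all genes (dotted). All means are below 1.1, from 0.800 for msl-1 to 0.984 for msl-3.

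The genes whose pattern over the 8 libraries was most like a member's were found by Pearson's r of log2(CPM + 0.1), as a description that rests on shared libraries. For msl-1 they were CG14562 (r = 0.990) and HIPP1 (0.989), for mof daw (0.995) and LBR (0.989), and for msl-3 PGRP-LC (0.989) and CG3939 (0.987). For msl-2 they were CycD (0.938) and Gel (0.931), for mle CG4332 (0.966) and hay (0.958), for roX1 Cda5 (0.970) and CG6356 (0.962), and for roX2 bbx (0.979) and CG6985 (0.972). No member was among the 2 most alike genes of another. Among the members themselves, r was highest for msl-1 with msl-3 (0.83) and msl-3 with mof (0.74) and lowest for mof with mle (-0.85), over 8 libraries in each case.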

How the data were processed

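RNA was sequenced from 8 poly(A) libraries and ChIP DNA from 4. The deposited RNA-seq values are raw read counts per gene, which the authors obtained after mapping with TopHat2. The deposited ChIP-seq values are a signal, the mean coverage over each gene, which the authors computed after alignment with Bowtie for each replicate; the table gives no depth per library, so no interval is given. The labels name the build dm3 and the methods BDGP6; the tables hold gene identifiers only, so coordinates, sequences and chromosomes come from the BDGP6 reference, which annotates 95.7% of the RNA-seq identifiers. Groups came from the sample labels. Counts were tested with edgeR 4.0.16 (TMM, filterByExpr, quasi-likelihood, 8 libraries in 1 fit, no block) in R 4.3.3, Benjamini-Hochberg adjusted p under 0.05. Intervals use the SE and edgeR's degrees of freedom. Signal was tested with limma 3.58.1 for genes with an Input of at least 0.5. Alternatives included DESeq2 1.42.0, limma-voom, other scalings, filters and thresholds, the replicate number as a block, and fits without 1 library. The members and gene lists were chosen with earlier results of these data known. Named genes are the 7 members, list genes that passed the threshold in a comparison, Sxl, Clamp, JIL-1, brm and MtnA, and the 2 genes most like each member among genes with at least 0.5 of its SD over the libraries. Of the listed genes, Top2 and vas matched no identifier.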

Additional observations from a re-analysis of the deposited data

Results flagged for a closer look

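In edgeR's fit of all 8 libraries, msl-1 and roX1 each showed unequal effects in groups that share the control libraries, by the test of the difference itself. For msl-1, recBRM-V5 cells differed from BRM-depleted cells by -0.63 on the log2 scale. For roX1, recBRM-K804R-V5 cells differed from BRM-depleted cells by -1.70, on 10 and 5 counts in recBRM-K804R-V5 cells, against 20 and 21 counts in BRM-depleted cells. Neither call was stable. The call of msl-1 was lost with only the libraries compared, that of roX1 was lost in DESeq2, and both were lost in several fits that left out a library. Against control cells, neither gene was called in any of these groups.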

How the results depend on the processing

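Against control cells, the members called in recBRM-V5 cells (0) became 1 at an adjusted p under 0.10, with library size alone and with no filter on low counts, and 0 to 2 when a library was left out. Against BRM-depleted cells, the call in recBRM-V5 cells (1) became 0 at 0.01 and with only the libraries compared, and 0 to 2 when a library was left out. The call in recBRM-K804R-V5 cells (1) became 0 in DESeq2, at 0.01, and with at least 50 counts in 2 libraries, where roX1 was not tested, 3 with only the libraries compared, and 0 to 2 when a library was left out. For both lines, the 2 calls became 0 at 0.01, 4 at 0.10 and 4 with library size alone, and 0 to 2 when a library was left out; they were 3, with msl-3, in DESeq2, limma-voom, both other scalings and with no filter. In the 3 other comparisons no alternative gave a call among the members. The log2 fold change of roX2 in both lines (0.02) was -0.06 with library size alone, -0.01 with no filter and between -0.21 and 0.19 when a library was left out. Of 966 values of members, 25 changed sign, 0 of them called.

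Of the 26 related genes tested, the 4 called in recBRM-V5 against control cells became 0 at 0.01 and with only the libraries compared, and 0 to 4 when a library was left out. The 5 called against BRM-depleted cells became 0 under the same settings, and 0 to 9 when a library was left out. For recBRM-K804R-V5 the 0 calls against control cells became 1 in DESeq2 and 2 at 0.10, and 0 to 1 when a library was left out. Its 0 calls against BRM-depleted cells became 3 in DESeq2, 5 at 0.10, 1 with library size alone, 1 with no filter and 3 with only the libraries compared, and 0 to 3 when a library was left out. Between both lines, 0 to 1 were called when a library was left out. For both lines against both other groups, the 6 calls became 1 at 0.01, 10 at 0.10 and 10 with library size alone, and 1 to 10 when a library was left out. The X minus autosome difference ran from -0.321 to -0.057 for recBRM-V5 against control, from -0.333 to -0.084 against recBRM-K804R-V5 and from -0.213 to 0.044 against BRM-depleted cells when a library was left out. The causes of these shifts were not tested.

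No source says that a replicate number marks a shared batch, and the deviations of same-numbered replicates correlated at 0.626 (recBRM-V5 and control), 0.235 (recBRM-K804R-V5 and BRM-depleted) and -0.32 to -0.267 in the 4 other pairs of groups, so the numbers were not taken as pairs. With the replicate number as a block, the members called became 0 for recBRM-K804R-V5 against BRM-depleted cells (roX1, adjusted p = 0.0644) and 1 for both lines (mof lost, adjusted p = 0.0612), and the related genes called in recBRM-V5 against BRM-depleted cells became 3. In the ChIP-seq, 0 members met the ratio criterion or were called by limma under the alternatives tried. With 2 replicates a group and 5 to 21 counts of roX1 a library, depth limits roX1 most.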
